A study of Mus musculus with 6 samples.

Results

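Actin filaments fill the dendritic spine, the small protrusion that carries most excitatory synapses of cortical neurons, and their turnover sets its shape. Filaments of β-actin and γ-actin, the cytoplasmic isoforms made from *Actb* and *Actg1*, grow from profilin-bound monomers, branch at the Arp2/3 complex after activation by WAVE proteins, and are severed by cofilin, which LIM kinases switch off by phosphorylation. Drebrin and cortactin bind filament sides in spines, and β-actin mRNA is a well-known example of an mRNA carried into dendrites and translated there. The genes described here are *Actb*, *Actg1*, *Pfn1*, *Pfn2*, *Cfl1*, *Limk1*, *Arpc2*, *Wasf1*, *Dbn1* and *Cttn*. They were chosen by name, through GENCODE symbols, and are 10 of the 31053 genes listed.

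The measurement was Ribo-STAMP, in which the cytidine deaminase rAPOBEC1 is fused to a ribosomal protein and marks mRNA near ribosomes with C-to-U edits. The value of a gene in a library is EPR, the number of edits divided by the number of reads on that gene. Division by reads is meant to take mRNA abundance and transcript length out of the value, and on that basis genes are set side by side below, but what dependence on depth, abundance or length remains was not tested. Every library came from primary cortical neurons of wild-type C57BL/6J mouse embryos at embryonic day 18, treated with floxuridine on day in vitro (DIV) 3, infected on DIV 6 with AAV vectors and collected on DIV 14. All 6 cultures received doxycycline at 1 μg/ml for 48 h, which switches on the fusion protein through an rtTA activator driven by the human synapsin promoter, so that expression is directed to neurons. In 3 libraries, termed RPL10A-STAMP, the ribosomal protein was mouse Rpl10a, joined behind rAPOBEC1. In the other 3, termed RPL22-STAMP, it was mouse Rpl22, joined ahead of the deaminase. The comparison therefore asks whether the 2 fusions, which sit on different proteins of the large ribosomal subunit, mark actin mRNAs alike. No library with unfused rAPOBEC1 or without doxycycline was analysed here, so no background of editing was subtracted.

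The libraries held between 9892 and 11195 genes with at least 1 edit, and 8046 genes were edited in all 6. The median EPR over these 8046 genes ran from 0.0120 to 0.0161 in RPL10A-STAMP libraries and from 0.00907 to 0.0129 in RPL22-STAMP libraries. Each library was therefore scaled to its median gene before variants were tested, and EPR values below are unscaled unless said otherwise. Reads per gene are unknown, so no counting error can be given for a single value. The sources describe the replicates in one place as biological and in another as technical, and p-values here measure only the spread between these samples. All 8 neuronal markers examined were edited in every library. Of 5 astrocyte markers 3 were also edited in all 6 libraries, with a summed EPR of 0.124 to 0.223 in RPL10A-STAMP libraries and 0.0631 to 0.188 in RPL22-STAMP libraries, and their part in the results was not tested. Of 5 markers each, 3 for oligodendrocytes (*Mog*, *Mag* and *Sox10*), 3 for microglia (*Csf1r*, *Aif1* and *P2ry12*) and 4 for endothelial and mural cells (*Cldn5*, *Pecam1*, *Pdgfrb* and *Acta2*) were listed at 0 in every library. The other markers of these lists were edited in at least 1 library, and 1 oligodendrocyte marker was edited in all 6. Summed EPR of the oligodendrocyte markers was 0.00358 to 0.0886 with RPL10A-STAMP and 0.00360 to 0.0532 with RPL22-STAMP. For microglia it reached 0.0143 and 0.0714, and for endothelial and mural cells 0 and 0.0182. An EPR of 0 means that no edit was counted and gives no level of the mRNA. In bulk libraries without read counts, fewer cells of a type, less RNA per cell and less editing of that RNA cannot be told apart.

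All 10 actin genes were edited in all 6 libraries. Their transcripts were short, from 861 to 3331 bases, and all 10 were below the median length of 3455 bases over the genes edited in every library. Their GC content ran from 46.6% to 58.9%, above the median of 48.9% in 9 of 10 genes. The genes lie on 8 chromosomes. For 5 of them, part of the transcript recurs letter for letter elsewhere in the mm10 genome. Reads that lie wholly within such a part fit more than 1 place, while reads that extend past it need not. In such runs of 50 bases or more lie 97.6% of bases of *Actg1*, 81.2% of *Cfl1*, 49.8% of *Actb*, 28.6% of *Cttn* and 7.02% of *Arpc2*. In runs of 100 bases or more the shares were 97.6%, 18.6%, 6.20%, 8.40% and 0%. No such run was found for *Pfn1*, *Pfn2*, *Limk1*, *Wasf1* and *Dbn1*. Reads were allowed up to 10 locations in alignment, but how those with several entered EPR is not given in the sources used here, so the values of *Actg1*, *Cfl1* and *Actb* are the less certain ones. At least 5 of the 10 were marked less than the median gene in every library: between 2 and 3 of the 10 were above it in each RPL10A-STAMP library, and between 4 and 5 in each RPL22-STAMP library. The highest of them was 5.61 to 23.9 times the lowest within a library.

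**Figure D1:**
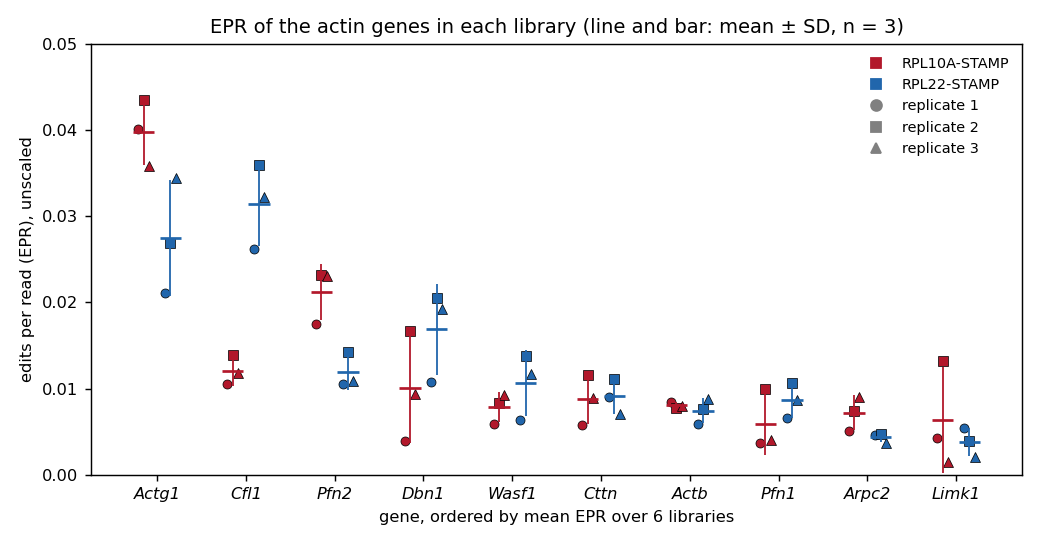
Unscaled EPR (edits per read, vertical axis) of the 10 actin genes in each of 6 libraries, RPL10A-STAMP in red and RPL22-STAMP in blue, one symbol per replicate. Lines and bars are the mean ± SD of 3 libraries. *Actg1* stands far above *Actb* in every library, and *Cfl1* is low in the 3 RPL10A-STAMP libraries and high in the 3 RPL22-STAMP libraries.

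With RPL10A-STAMP the order was led by *Actg1*, with a mean EPR of 0.0398 ± 0.00383 (SD, n = 3), followed by *Pfn2* and *Cfl1*. Each of these first 2 steps was larger than the greater SD of the neighbours and kept its order in 3 of 3 libraries. From *Cfl1* downward, through *Dbn1*, *Cttn*, *Actb*, *Wasf1*, *Arpc2*, *Limk1* and *Pfn1*, no neighbours differed by more than their spread. With RPL22-STAMP the first place went to *Cfl1*, at 0.0314 ± 0.00490 (SD, n = 3), and *Actg1* came next at 0.0275 ± 0.00671, a gap smaller than the spread. The step from *Actg1* to *Dbn1* and that from *Actb* to *Arpc2* exceeded the greater SD and held in 3 of 3 libraries. The remaining neighbours, in the order *Dbn1*, *Pfn2*, *Wasf1*, *Cttn*, *Pfn1* and *Actb*, and then *Arpc2* and *Limk1*, did not differ beyond their spread.

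In each library the 2 actin mRNAs were marked very differently, although they encode nearly the same protein. *Actb* (ENSMUSG00000029580) lies on the minus strand of mm10 chr5:142903115-142906754, and *Actg1* (ENSMUSG00000062825) on the minus strand of chr11:120345690-120348542. Their coding sequences are each 1125 bases long and 88.6% identical, their transcripts are 1920 and 1952 bases long, and cytidine makes up 26.9% of the *Actb* transcript and 26.7% of the *Actg1* transcript. The first 30 coding bases, read from the mm10 genome (GRCm38), are shown because they span the N terminus, where the isoforms differ most. Capitals mark the 8 bases at which the pair differ.
Actb, chr5:142905657-142905686, minus strand, coding exon: atggaTgaCgaTatcgcTgcGctGgtcGtC
Actg1, chr11:120348062-120348091, minus strand, coding exon: atggaAgaAgaAatcgcCgcActCgtcAtT

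*Actb* had an EPR of 0.00844, 0.00774 and 0.00795 across RPL10A-STAMP replicates and of 0.00592, 0.00768 and 0.00875 across RPL22-STAMP replicates. The groups overlapped. The unscaled RPL10A-STAMP values lay close together, with an SD of 4.46% of the mean, and 1.76% of the 8046 genes had a smaller one. This did not hold after scaling, where they were 0.00884, 0.00636 and 0.00617. *Actg1* had an EPR of 0.0401, 0.0435 and 0.0358 in RPL10A-STAMP libraries and of 0.0211, 0.0269 and 0.0345 in RPL22-STAMP libraries. All 3 RPL10A-STAMP values were above all 3 RPL22-STAMP values, by a narrow margin. *Actb* stood between the 21.8th and the 37.6th percentile of edited genes and *Actg1* between the 82.4th and the 91.5th.

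Within a library, *Actg1* was marked 4.75, 5.62 and 4.51 times as much as *Actb* in RPL10A-STAMP libraries and 3.57, 3.51 and 3.94 times as much in RPL22-STAMP libraries. It was the higher gene in 6 of 6 libraries, with a mean log2 ratio of *Actb* over *Actg1* of -2.09 ± 0.26 (SD, n = 6). The exact two-sided sign-flip test over the 6 libraries gave p = 0.031, the smallest it can give, and an adjusted p of 0.052 over the 5 pairs of related genes examined. These pairs were chosen with earlier results of these data known. Their p-values, here and below, are therefore descriptive and test no prior choice. The groups of ratios did not overlap: the mean log2 ratio was -2.30 ± 0.17 (SD, n = 3) in RPL10A-STAMP libraries and -1.87 ± 0.09 (SD, n = 3) in RPL22-STAMP libraries. The difference of -0.43 had an exact two-sided permutation p of 0.10, the smallest that 3 against 3 libraries allow, and an adjusted p of 0.125. The longest stretch common to both transcripts was 62 bases, and the longest exact copy elsewhere in the genome was 934 bases for *Actg1* and 119 bases for *Actb*. The part of these copies in the difference was not tested.

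Neither isoform was called different between the variants. After scaling, the log2 fold change, on the log2(EPR + 0.01) scale and positive where RPL10A-STAMP is higher, was -0.11 for *Actb* (95% CI -0.41 to 0.19, limma adjusted p = 0.59) and 0.13 for *Actg1* (95% CI -0.30 to 0.56, limma adjusted p = 0.67). The pseudocount of 0.01 is as large as a typical EPR, so such fold changes understate the ratio of 2 values, above all for low genes. For *Actb* the sign depended on the scaling, since without it the log2 fold change was 0.05. The muscle actins *Acta1*, *Acta2*, *Actc1* and *Actg2* were listed at 0 in every library. Genes were also compared with *Actb* by the root mean square difference of scaled log2 profiles over the 6 libraries, each centred on the gene's own mean. The most alike was *Ckmt1*, a mitochondrial creatine kinase (0.023). Next came *Srpk2*, a kinase of splicing factors (0.028), and *Arl4c*, a small GTPase of the ARF family (0.033). The pseudocount flattens the profiles of low genes, so level still enters this measure.

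*Cfl1* (ENSMUSG00000056201, plus strand, chr19:5490455-5495201), which encodes the filament-severing protein cofilin-1, was the only one of the 10 genes called different between the variants, and it was marked more by RPL22-STAMP. Its EPR was 0.0105, 0.0139 and 0.0118 in RPL10A-STAMP libraries and 0.0262, 0.0359 and 0.0322 in RPL22-STAMP libraries. The groups were far apart, with the highest RPL10A-STAMP value below the lowest RPL22-STAMP value, and the RPL10A-STAMP mean was 0.383 of the RPL22-STAMP mean. *Cfl1* passed from between the 37.8th and the 46.9th percentile of edited genes in RPL10A-STAMP libraries to between the 88.3rd and the 90.2nd in RPL22-STAMP libraries. The log2 fold change was -1.16 ± 0.12 (SE, 95% CI -1.45 to -0.87), with a limma adjusted p of 0.0044 over 8046 genes, and 1.32% of those genes had a lower one. Of the genes tested, 14.3% were called, 8.51% as higher in RPL10A-STAMP libraries and 5.77% as lower there, so that 1 call among 10 genes is near the background. The call was kept in 19 of 20 alternative analyses and lost, with an adjusted p of 0.080, in a gene-wise test on unscaled EPR without variance moderation, which called no gene at all. With the trend of each library on transcript GC content removed it stood at -0.95 (limma adjusted p = 0.0091). Copies elsewhere cover 81.2% of the *Cfl1* transcript at 50 bases and 18.6% at 100 bases, and their part was not tested. On the opposite strand, *Snx32* shares 16.5% of the exon bases of *Cfl1*. The EPR of *Snx32* was between 0.00303 and 0.00952 in the 6 libraries, below that of *Cfl1* throughout. As a ratio, EPR does not give the number of reads on the shared bases, and the part of this overlap was not tested.

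The family has 3 genes in the mouse. *Cfl2* encodes cofilin-2, and *Dstn* encodes destrin, also named actin-depolymerizing factor. The coding bases 4 to 33 of the family, in GRCm38, are shown because they hold the serine at residue 3, counted from the initiator methionine, that LIM kinases phosphorylate. Capitals mark its codon.
Cfl1, chr19:5492497-5492526, plus strand, coding exon: gccTCTggtgtggctgtctctgatggtgtc
Cfl2, chr12:54861804-54861833, minus strand, coding exon: gcaTCTggagttacagtgaatgatgaagtc
Dstn, chr2:143938385-143938414, plus strand, coding exon: gccTCAggagttcaggttgcggatgaagta

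*Dstn* went the other way from *Cfl1*. Its EPR was 0.0752, 0.0873 and 0.101 in RPL10A-STAMP libraries and 0.0286, 0.0312 and 0.0311 in RPL22-STAMP libraries, with no overlap, and exact copies of 50 bases or more elsewhere cover 26.2% of its transcript. The log2 fold change was 0.95 ± 0.14 (SE), with a limma adjusted p of 0.0080, and 0.80 with the GC trend removed (limma adjusted p = 0.021). *Cfl2* had an EPR of 0.0271, 0.0365 and 0.0428 in RPL10A-STAMP libraries and of 0.0200, 0.0114 and 0.0111 in RPL22-STAMP libraries. Its groups did not overlap either, but the log2 fold change of 0.64 did not pass (limma adjusted p = 0.12), and it was 0.15 with the GC trend removed, where its transcript has 36.9% GC. *Cfl2* passed in 2 of 20 alternatives, among them the one without scaling, at 0.92 (limma adjusted p = 0.033).

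Set against each other within a library, *Dstn* was marked 7.17, 6.30 and 8.55 times as much as *Cfl1* in RPL10A-STAMP libraries and 1.09, 0.869 and 0.967 times as much in RPL22-STAMP libraries. The mean log2 ratio of *Cfl1* over *Dstn* was -2.86 ± 0.22 (SD, n = 3) in RPL10A-STAMP libraries and 0.04 ± 0.16 (SD, n = 3) in RPL22-STAMP libraries, so the pair was level with one variant and widely split with the other. The difference of -2.91 between the variants had an exact permutation p of 0.10, the smallest possible, and an adjusted p of 0.125. Over all 6 libraries the exact sign-flip test gave p = 0.19 (adjusted 0.23).

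The kinase *Limk1* (ENSMUSG00000029674, minus strand, chr5:134656039-134688598), which phosphorylates cofilin, was the least evenly marked gene of the 10. Its EPR was 0.00424, 0.0133 and 0.00150 in RPL10A-STAMP libraries and 0.00538, 0.00389 and 0.00210 in RPL22-STAMP libraries. The second RPL10A-STAMP library alone was high, the groups overlapped, and the SD was 97.1% of the mean in RPL10A-STAMP libraries and 43.3% in RPL22-STAMP libraries. The log2 fold change was 0.06 (95% CI -0.51 to 0.63, limma adjusted p = 0.89), and -0.18 without that library. *Limk2*, the other LIM kinase, was the higher of the pair in 6 of 6 libraries. The mean log2 ratio of *Limk1* over *Limk2* was -1.76 ± 1.09 (SD, n = 6; exact sign-flip p = 0.031, adjusted 0.052), and the ratios of the variants overlapped. Among genes acting on the cofilin serine, *Pdxp*, which encodes the phosphatase chronophin, was called higher in RPL22-STAMP libraries, at a log2 fold change of -1.18 ± 0.18 (SE, limma adjusted p = 0.0081). That gene shares 45.1% of its exon bases with another annotated gene on the same strand, and exact copies elsewhere cover 22.4% of its transcript. Its reads are therefore uncertain, and without scaling it did not pass, at -0.90 (limma adjusted p = 0.051). The slingshot phosphatases *Ssh1*, *Ssh2* and *Ssh3* had log2 fold changes of -0.69, -0.36 and -1.25 and *Limk2* one of -0.31, none of which passed. *Tesk1* and *Tesk2* were not edited in every library and were not tested.

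**Figure D2:**
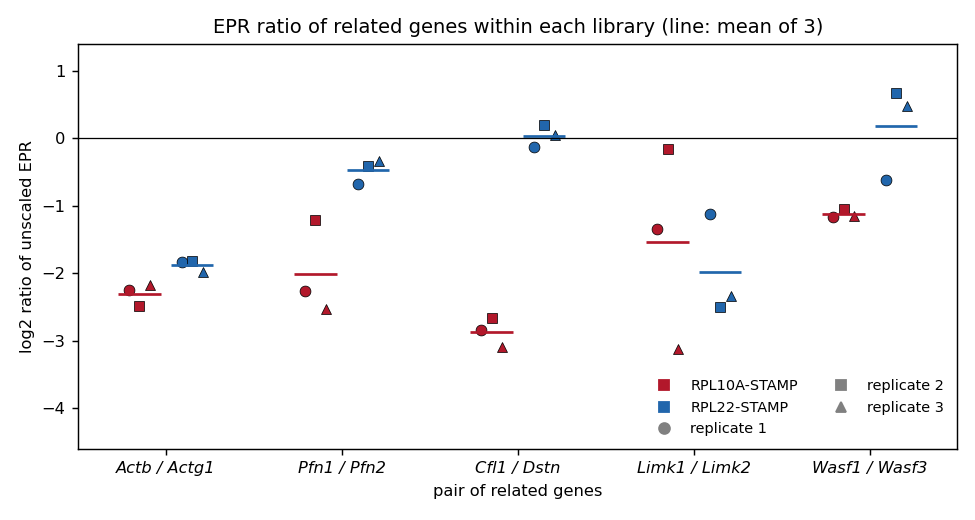
Log2 ratio of unscaled EPR between related genes (vertical axis) within each library, for 5 pairs (horizontal axis), RPL10A-STAMP in red, RPL22-STAMP in blue and lines at the mean of 3 libraries. *Actg1* exceeds *Actb* in all 6 libraries, and *Cfl1* over *Dstn* lies near 0 in RPL22-STAMP libraries and near -3 in RPL10A-STAMP libraries.

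Of the profilins, which deliver actin monomers to growing filaments, *Pfn2* was marked more than *Pfn1* in every library. The difference did not pass after adjustment. *Pfn1* (ENSMUSG00000018293, minus strand, chr11:70651850-70654644) encodes the widespread form and *Pfn2* (ENSMUSG00000027805, minus strand, chr3:57841895-57848079) the form enriched in neurons. Their coding sequences are both 420 bases long and 61.7% identical, with no common run over 13 bases. *Pfn1* had an EPR of 0.00364, 0.00997 and 0.00400 in RPL10A-STAMP libraries and of 0.00660, 0.0107 and 0.00864 in RPL22-STAMP libraries. The second RPL10A-STAMP library was again high, and the groups overlapped.

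*Pfn2* had an EPR of 0.0175, 0.0231 and 0.0231 in RPL10A-STAMP libraries and of 0.0106, 0.0142 and 0.0109 in RPL22-STAMP libraries. Here all RPL10A-STAMP values were the higher ones, and the ratio of means was 1.79. *Pfn2* exceeded *Pfn1* in 6 of 6 libraries, by 4.81, 2.32 and 5.77 times in RPL10A-STAMP libraries and by 1.60, 1.33 and 1.26 times in RPL22-STAMP libraries (exact sign-flip p = 0.031, adjusted 0.052). The mean log2 ratio of *Pfn1* over *Pfn2* was -2.00 ± 0.70 (SD, n = 3) in RPL10A-STAMP libraries and -0.47 ± 0.18 (SD, n = 3) in RPL22-STAMP libraries, without overlap (exact permutation p = 0.10, adjusted 0.125). Taken singly, neither gene passed: the log2 fold change was -0.41 for *Pfn1* (95% CI -0.77 to -0.04, limma adjusted p = 0.12) and 0.27 for *Pfn2* (95% CI -0.01 to 0.56, limma adjusted p = 0.18). Of the remaining profilins, *Pfn3* was listed at 0 throughout and *Pfn4* had a log2 fold change of 0.04 (limma adjusted p = 0.96).

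*Arpc2* (ENSMUSG00000006304, plus strand, chr1:74236084-74268209) encodes a core subunit of the Arp2/3 complex, the nucleator of branched filaments. Its EPR was 0.00503, 0.00743 and 0.00909 in RPL10A-STAMP libraries and 0.00467, 0.00476 and 0.00366 in RPL22-STAMP libraries, low values throughout. The groups did not overlap before scaling but did after it, and the log2 fold change was 0.10 (95% CI -0.17 to 0.38, limma adjusted p = 0.59). Of the complex's other subunit genes, 8 were tested. *Arpc5*, with 49.8% of its transcript in exact copies, was called higher in RPL10A-STAMP libraries (log2 fold change 0.85, limma adjusted p = 0.039) and *Arpc4* higher in RPL22-STAMP libraries (-0.82, limma adjusted p = 0.021), and *Arpc4* shares 12.2% of its exon bases with *Ttll3* on the same strand. With the GC trend removed both calls were lost, at 0.73 for *Arpc5* (limma adjusted p = 0.077) and -0.63 for *Arpc4* (limma adjusted p = 0.065). The *Arpc4* call was lost also without scaling, at -0.55 (limma adjusted p = 0.14). *Actr2*, *Actr3*, *Actr3b*, *Arpc1a*, *Arpc3* and *Arpc5l* had log2 fold changes from -0.22 to 0.40 and did not pass. *Arpc1b* was edited in 1 library.

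*Wasf1* (ENSMUSG00000019831, plus strand, chr10:40883475-40938570) encodes WAVE1, the neuronal activator of Arp2/3. Its EPR was 0.00595, 0.00828 and 0.00929 in RPL10A-STAMP libraries and 0.00639, 0.0138 and 0.0117 in RPL22-STAMP libraries. The groups overlapped before scaling and separated after it, with a log2 fold change of -0.37 (95% CI -0.69 to -0.05, limma adjusted p = 0.11). Against *Wasf3*, its mean log2 ratio was -1.11 ± 0.07 (SD, n = 3) in RPL10A-STAMP libraries and 0.18 ± 0.69 (SD, n = 3) in RPL22-STAMP libraries (exact permutation p = 0.10, adjusted 0.125), and it was the higher gene only in RPL22-STAMP replicates 2 and 3. Of the 7 other WAVE complex genes tested, 6 had a positive log2 fold change, opposite in sign to *Wasf1*. Over all genes tested, 3921 of 8046 were positive. The median GC content of the 7 was 46.1%, against 48.9% over all genes tested. The scaffold gene *Nckap1* (0.60, limma adjusted p = 0.023) and the adaptor gene *Abi1* (0.53, limma adjusted p = 0.047) were called. With the GC trend removed neither passed, at 0.47 for *Nckap1* (limma adjusted p = 0.062) and 0.18 for *Abi1* (limma adjusted p = 0.47). *Wasf3*, *Cyfip1*, *Cyfip2*, *Abi2* and *Brk1*, at 0.28, 0.48, 0.18, 0.40 and -0.45, were not. *Wasf2* was edited in 1 library, and *Nckap1l* and *Abi3* were listed at 0 in all.

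*Dbn1* (ENSMUSG00000034675, minus strand, chr13:55473429-55488111) encodes drebrin, which stabilizes spine filaments. Its EPR was 0.00397, 0.0167 and 0.00941 in RPL10A-STAMP libraries and 0.0108, 0.0206 and 0.0193 in RPL22-STAMP libraries. The groups overlapped through the second RPL10A-STAMP library, and separated after scaling. The log2 fold change of -0.67 (95% CI -1.18 to -0.17) was the next lowest after *Cfl1* but did not pass (limma adjusted p = 0.080), and with the GC trend removed it was -0.34 (limma adjusted p = 0.36), its transcript having 58.2% GC. *Cttn* (ENSMUSG00000031078, minus strand, chr7:144435733-144471009) encodes cortactin, which holds Arp2/3 branches in place. Its EPR was 0.00580, 0.0116 and 0.00895 in RPL10A-STAMP libraries and 0.00906, 0.0111 and 0.00709 in RPL22-STAMP libraries, values that overlapped widely. The log2 fold change of *Cttn* was -0.22 (95% CI -0.56 to 0.13, limma adjusted p = 0.35). Of their relatives, *Dbnl* (-0.27) and *Cttnbp2* (0.52) did not pass and *Hcls1* was listed at 0.

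**Figure D3:**
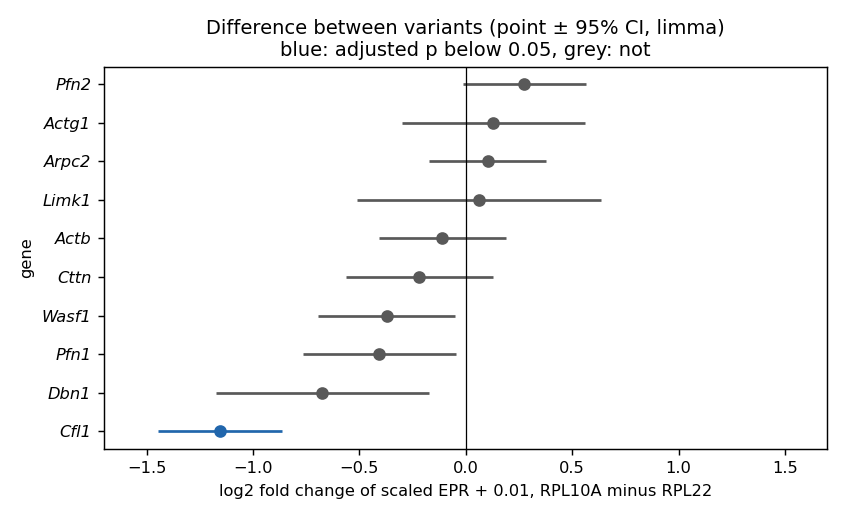
Log2 fold change of scaled EPR + 0.01, RPL10A-STAMP minus RPL22-STAMP (horizontal axis), for the 10 actin genes, with the 95% CI from limma as bars. *Cfl1* (blue) is the gene with an adjusted p under 0.05. The intervals of *Dbn1*, *Pfn1* and *Wasf1* exclude 0 before adjustment over all genes.

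Before scaling, 4 of the 10 genes had variants that did not overlap, *Actg1*, *Pfn2* and *Arpc2* with the higher values in RPL10A-STAMP and *Cfl1* with the higher ones in RPL22-STAMP. Of all genes tested, 34.4% did not overlap, and 28.2% did so with the higher values in RPL10A-STAMP. After scaling it was 5 of 10, namely *Cfl1*, *Dbn1*, *Pfn1*, *Wasf1* and *Pfn2*, against 37.1% of all genes. The median log2 fold change was -0.16 over the 10 genes and -0.01 over the 8046. The highest of the 3 RPL10A-STAMP values came from the second library in 7 of 10 genes, against 37.3% of all genes, and in 6 of 10 after scaling, against 32.9%. Among them, *Pfn1*, *Limk1* and *Dbn1* had an SD of 60.5%, 97.1% and 63.7% of the mean in RPL10A-STAMP libraries, where the median gene had 28.0%. Why that library stood high for these genes was not tested. Of the RPL22-STAMP libraries the second was also the highest in 7 of 10 genes, against 52.0% of all genes. After scaling it was the highest in 2 of 10, against 30.4%. The median spread of the 10 genes, at 25.1% of the mean in RPL10A-STAMP libraries and 22.9% in RPL22-STAMP libraries, was below the medians of 28.0% and 32.1% over all genes.

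A wider list of 116 genes of the actin cytoskeleton was tested in the same fit. Of these, 12 were listed at 0 in every library and 90 could be tested. Calls numbered 13, or 14.4%, against 14.3% of all genes tested, 8 of them higher in RPL10A-STAMP libraries and the other 5 lower there. The median log2 fold change was 0.00. With any 1 library left out, the list had between 5 and 12 calls in place of 13. There were 5 without RPL10A-STAMP replicate 1 or 2 or RPL22-STAMP replicate 2, and 6 without replicate 3 of either variant. The 12, without RPL22-STAMP replicate 1, include genes outside the 13 calls. *Dstn*, *Pdxp*, *Rock1*, *Marcksl1* and *Ppp1r9b* were called whichever library was left out. *Abi1*, *Tmod2* and *Arhgef7* were lost without any 1 of the 6 libraries, *Arpc5*, *Nckap1*, *Cap2* and *Tmsb10* without any except RPL22-STAMP replicate 1, and *Arpc4* without replicate 1 or 2 of either variant.

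Outside the roles already described, the kinase gene *Rock1*, which acts upstream of LIM kinases, had a log2 fold change of 1.35 (limma adjusted p = 0.0045). *Cap2*, a partner of cofilin in recycling monomers, had one of 0.69 (limma adjusted p = 0.020), and *Arhgef7* one of 0.56 (limma adjusted p = 0.040). The genes higher in RPL22-STAMP libraries were *Marcksl1*, a membrane-bound filament binder (-1.25, limma adjusted p = 0.0044), *Ppp1r9b*, which encodes the spine protein spinophilin (-1.03, limma adjusted p = 0.0049), and *Tmsb10*, a thymosin that binds monomers (-0.78, limma adjusted p = 0.019), and exact copies elsewhere cover 57.1% of the *Marcksl1* transcript and 40.4% of that of *Tmsb10*. The remaining call, *Tmod2*, a pointed-end capping protein (0.50, limma adjusted p = 0.039), is named, after its values were seen, because it completes the count. With the GC trend removed *Tmod2* and *Tmsb10* did not pass, at 0.28 (limma adjusted p = 0.22) and -0.41 (limma adjusted p = 0.12). The *Tmsb10* call was lost also without scaling, at -0.60 (limma adjusted p = 0.091). None of the 8 formins, 3 myosins and 3 WASP proteins and partners tested was called.

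**Figure D4:**
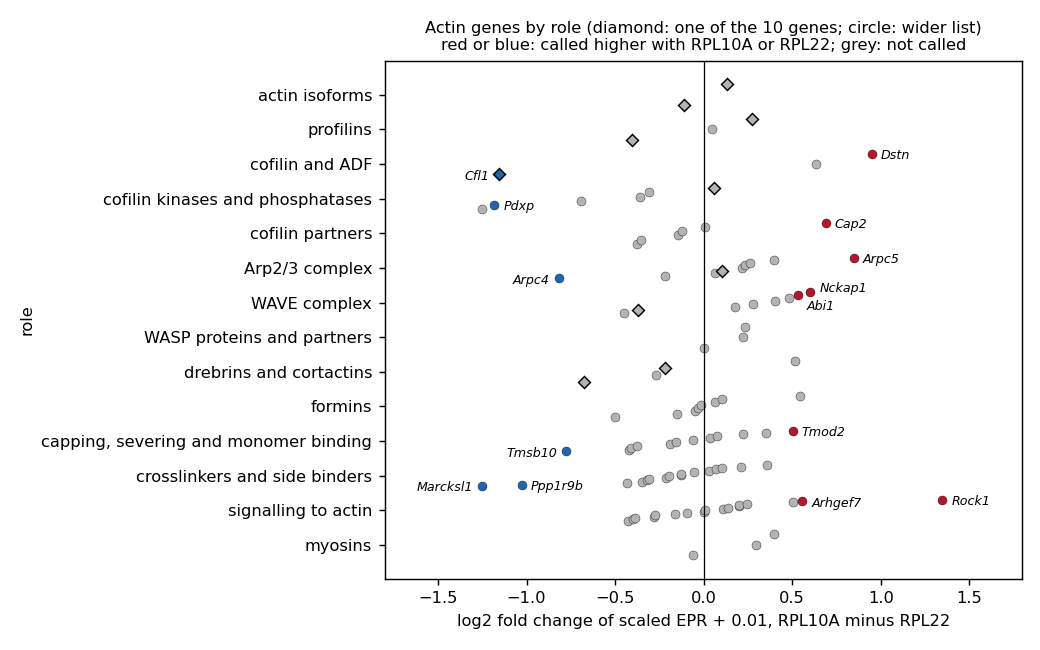
Log2 fold change, RPL10A-STAMP minus RPL22-STAMP (horizontal axis), of the 100 actin genes tested, by role (vertical axis). Diamonds are the 10 genes, circles the wider list, and colour marks the 14 genes called in all, of which *Cfl1* and *Dstn* lie on opposite sides of 0 within one family.

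The difference between the variants moved with base composition among actin genes. Over the 100 tested, Spearman's correlation between transcript GC content and the log2 fold change was -0.55, and over all 8039 tested genes with a transcript sequence it was -0.47. These are descriptions across genes of the same 6 libraries. Among actin genes, the 19 with GC content below 44.5% had a median log2 fold change of 0.26 and the 23 above 53.6% one of -0.31. *Limk1*, with the most GC of the 10 genes at 58.9%, did not follow the order, and *Cfl1*, at 53.6%, lay below the other actin genes near its GC content. After removal of the GC trend, *Cfl1* was still the only one of the 10 genes called, where 8.25% of all genes were. The log2 fold changes of *Pfn1*, *Wasf1* and *Cttn* became -0.14, -0.30 and -0.03. Those of *Actg1*, *Pfn2* and *Limk1* grew to 0.30, 0.42 and 0.41, and those of *Actb* and *Arpc2* became -0.002 and 0.004. Whether GC content itself has a part in the difference was not tested.

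**Figure D5:**
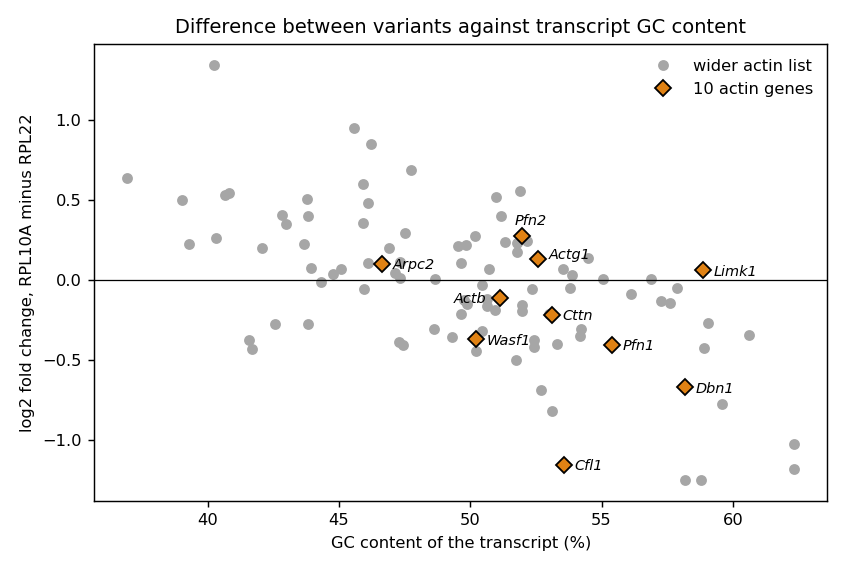
Log2 fold change, RPL10A-STAMP minus RPL22-STAMP (vertical axis), against the GC content of the transcript in percent (horizontal axis), for the 10 actin genes (orange diamonds) and the wider actin list (grey circles). Values tend to fall from left to right, and *Cfl1* lies below genes of like GC content.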

How the data were processed

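Per the labels and the study's methods, the authors prepared stranded poly(A) libraries, aligned reads to mm10 with STAR, identified C-to-U edits (SAILOR) and assigned reads to genes (featureCounts). The deposited values are a ratio, EPR, with 1 value per gene and library; read counts were not used here and the authors' gene annotation is not given in the sources used here. Gene IDs were named through GENCODE M21, which matched 31011 of 31053.

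For the genes edited in all 6 libraries, EPR was scaled to the median gene of each library, converted to log2(EPR + 0.01) and tested with limma 3.58.1 (R 4.3.3; lmFit, then eBayes with a variance trend), coded RPL10A-STAMP minus RPL22-STAMP, with Benjamini-Hochberg adjustment over 8046 genes and a threshold of 0.05. Related genes were compared as log2 ratios of unscaled EPR within libraries by exact sign-flip tests over libraries, and between variants by exact permutation tests, both two-sided and adjusted over 5 pairs. Transcript properties and sequences came from GRCm38, and exact copies of 50 bases or more were found by matching every 50-base word of a transcript to both strands of the chromosomes outside its own gene. The fitting procedure was tested on simulated data.

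The 10 genes, the wider list and the pairs were chosen with earlier results of these data known, so the p-values of the pairs are descriptive. Named genes were the 10, all genes of the actin, profilin, cofilin, cofilin kinase and phosphatase, Arp2/3, WAVE, drebrin and cortactin roles, the 3 non-overlapping calls with the largest log2 fold change in each direction from other roles, and the 3 genes most like *Actb*. Alternatives covered the pseudocount, scaling, filter, GC content, length, replicate block, variance model, test and each library left out. Groups of 3 are too small for an outlier test.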

Additional observations from a re-analysis of the deposited data

How the results depend on the processing

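The call of *Cfl1* as the only one among the 10 genes was the same in 19 of 20 alternatives; the gene-wise test on unscaled EPR gave 0 calls among the 10, 0 in the wider list and 0 over all genes, of which 1996 had an unadjusted p under 0.05 (2486 with limma). The 1149 calls over all genes became 754 with genes edited in at least 3 libraries, 569 with genes edited in at least 1, 663 with the GC trend removed and 373 to 874 with 1 library left out. The wider list, with 13 calls, had 6 with genes edited in at least 1 library and 5 to 12 with 1 library left out. Replicate numbers gave little sign of pairing: deviations of equally numbered libraries correlated by 0.04, 0.05 and -0.01. These values cannot settle whether equally numbered cultures were prepared together. With the number as a replicate block, calls were 603 over all genes, 6 in the wider list and 1 among the 10; with the GC trend also removed they were 227, 1 and 1. The log2 fold change of *Actb* turned to 0.051 without scaling and 0.11 in the gene-wise test. That of *Limk1* turned to -0.076 without a pseudocount and ran from -0.18 to 0.27 with 1 library left out, turning also without the third RPL22-STAMP library, at -0.05. The difference in the log2 ratio of *Limk1* over *Limk2* ran from -0.25 to 1.23 with 1 library left out. Scaled to the median gene, mean EPR moved by more than its SD for *Actb* and *Actg1* with RPL10A-STAMP, to 0.00712 and 0.0352, and for *Arpc2* with RPL22-STAMP, to 0.00506. The remaining 17 of 20 mean levels moved by less. The cause of these changes was not tested. With 3 libraries per variant and reads per gene unknown, small differences could not be resolved.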
